A study of Mus musculus with 4 samples.

Results

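Bone marrow neutrophils of miR-125a-/- mice were compared with and without lipopolysaccharide (LPS), the endotoxin of Gram-negative bacteria, and their response is described here across genes. The response is the log2 signal of the knockout array after 3 h of LPS minus that of the unstimulated knockout array, so it rests on 2 of the 4 arrays in the series. The other 2 arrays hold the same states in miR-125a+/+ cells, called wild type here, and their values are given at the end for the genes and lists compared. All mice are labelled as C57BL/6, 8 weeks old. Cells were separated magnetically with a Neutrophil Isolation Kit (Miltenyi Biotec) and kept in culture medium with 10% FBS. RNA of 3 experiments was combined into 1 array per group. The experiments can therefore not be told apart, no test was possible, and every difference below is a value with no replicate check. The sources used here do not state the LPS dose or how the allele was deleted. The labels call the unstimulated cells 0 h in their titles and describe stimulation without LPS elsewhere. If those cells did not spend the same 3 h in culture, LPS and culture cannot be told apart.

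LPS is handed by its binding protein and CD14 to the complex of Toll-like receptor 4 and MD-2. From there the adaptor MyD88 leads to NF-kB and MAP kinases, which switch on cytokine and chemokine genes, and the adaptor TRIF leads to interferon regulatory factors, type I interferon and, through JAK and STAT proteins, antiviral genes. Both branches also induce their own inhibitors. Neutrophils are the first leukocytes at a site of bacterial infection, where they release granule proteins and oxidants and secrete chemokines. MicroRNAs bind messenger RNAs through a short seed at their 5′ end and reduce their stability or translation.

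The deleted microRNA shares its seed with miR-125b, which other genes encode, and both mature sequences are shown because this seed sets which transcripts the family can pair with. Capitals mark the seed, bases 2 to 8, which is identical in both. The sequences are those of RefSeq on GRCm38.p6, with mmu-miR-125a-5p at chr17:17830817-17830840 (plus strand) and mmu-miR-125b-5p at chr9:41581940-41581961 (plus strand).
mmu-miR-125a-5p: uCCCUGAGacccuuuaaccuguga
mmu-miR-125b-5p: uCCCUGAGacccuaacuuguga
Neither microRNA was measured by these arrays. Spaca6, whose transcript hosts the microRNA cluster, reached a log2 signal of at most 6.24 on any array, below the signal floor of 6.80, and the values thus offer no check of genotype.

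After LPS, 634 of 9578 measured genes were at least 2-fold higher in knockout cells (6.62%) and 765 were at least 2-fold lower (7.99%). Every count of gene list members below is to be read beside these shares, and none was tested against them. A gene was measured if its brightest probe set exceeded the floor, a log2 signal of 6.80, on at least 1 of both knockout arrays. Where 1 side lay below the floor, the floor stood in for it and the difference is a lower bound, which held for 90 of the higher and 118 of the lower genes. On the scale of the deposited values the higher genes reached further, which was not counted on other scales. At 4-fold, 187 genes were higher and 69 lower, at 8-fold 58 and 10, and at 16-fold 19 and 1. The median difference of all measured genes was -0.05 on the log2 scale, and the middle 50% lay between -0.45 and 0.32.

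**Figure D1:**
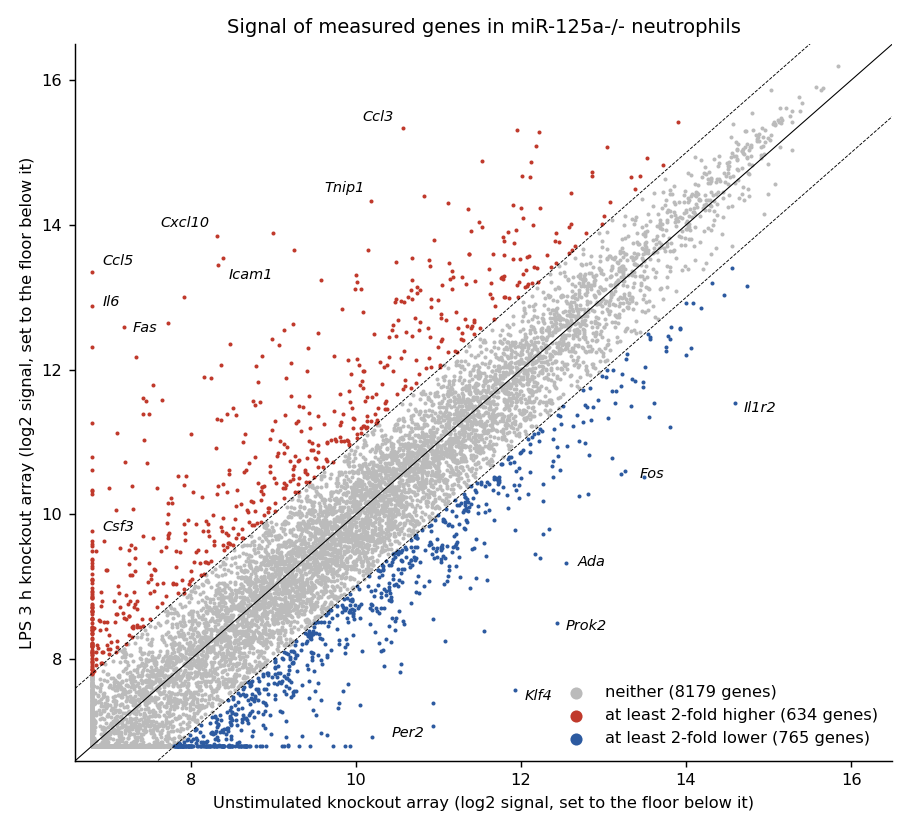
Log2 signal of each measured gene on the unstimulated knockout array (horizontal axis) and on the knockout array after 3 h of LPS (vertical axis), 1 point per gene, with values under 6.80 set to that floor; the dashed lines mark 2-fold. On this deposited scale the 634 higher genes (red) reach farther from the diagonal than the 765 lower genes (blue), and the columns of points at the left and lower edges are bounds.

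The balance of higher and lower genes depended on how the arrays were scaled. The deposited values share a trimmed mean, and 45.3% of the called genes were higher. With quantile normalization 735 genes were higher and 633 lower (53.7% of calls higher), and with equal medians 737 and 626 (54.1%). Scaled on the poly-A spike-in controls, bacterial transcripts added during RNA labelling, 314 genes were higher and 2574 lower (10.9%). That scale moved the median of all genes by -0.56, since the 24 control probe sets averaged a log2 signal of 8.64 on the unstimulated and 9.25 on the LPS array. On the spike-in scale 33 of the 63 gene list medians given below change sign, and that value is given where such a list's median is. On the wild-type arrays the same controls averaged 8.72 unstimulated and 9.29 after LPS. Being added during RNA labelling, the controls do not measure RNA per cell, and the source of their shift was not tested. In bulk RNA such as this, less of a transcript per cell and fewer cells of a type cannot be told apart. Between 37.8% and 41.5% of the 45101 probe sets lay above the floor on the 4 arrays, and the 2 knockout arrays had a correlation of 0.958 across probe sets.

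The 15 highest differences above the floor on both knockout arrays ran from 4.03 to 5.53 on the log2 scale. Of the genes measured before and after LPS, Cxcl10, a chemokine that draws activated T cells, had a log2 signal of 8.31 unstimulated and 13.85 after LPS. It was thus 46.3-fold higher. Fas, the death receptor, stood at 7.19 and 12.59 and was 42.2-fold higher. Both genes were above the floor without LPS and far higher on the LPS array. Adgre1, a surface receptor used as a macrophage marker, stood at 8.39 and 13.55 (35.7-fold). Icam1, the endothelial and leukocyte ligand of beta-2 integrins, stood at 8.32 and 13.45 (34.8-fold). Slc7a11, the cystine importer of glutathione synthesis, stood at 7.92 and 13.01 (34.1-fold), and its other probe set had a log2 difference of 3.86.

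Genes that could not be seen in unstimulated knockout cells included several secreted mediators. Ccl5, a chemokine for T cells and monocytes, was below the floor at 6.54 and reached 13.35, at least 94.1-fold higher. Il6, the inducer of the acute phase response, went from 5.24, below the floor, to 12.87, at least 67.5-fold higher. Smpdl3b, a membrane-bound phosphodiesterase that restrains Toll-like receptor signalling, had 5.75 and 12.31, at least 45.8-fold higher. For these genes only the value after LPS was measured. Il1a (6.05 and 11.27), Ptx3 (4.81 and 10.79) and Cd40 (6.57 and 10.62) were at least 22.1-fold, 15.9-fold and 14.1-fold higher. They encode an interleukin-1 ligand, a secreted pattern recognition protein and a costimulatory receptor. Abca1, the cholesterol exporter, Mmp13, a collagenase, Il10, the anti-inflammatory cytokine, and Csf3, which encodes G-CSF, were at least 11.7-fold, 11.5-fold, 11.2-fold and 7.86-fold higher. For Abca1 the mean over its probe sets gave 0.74 in place of a bound of 3.55 and was not called. Csf3 stood at 2.60 unstimulated and 9.77 after LPS.

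The remaining genes among the 15 highest had differences from 4.03 to 4.92. Usp18, which removes ISG15 and dampens the interferon receptor, stood at 7.73 and 12.64 (30.2-fold). Ccl4 stood at 8.99 and 13.89 (29.7-fold) and Ccl3 at 10.57 and 15.34 (27.3-fold). These neighbouring genes encode the chemokines MIP-1 beta and MIP-1 alpha. Relb, an NF-kB subunit, stood at 7.34 and 12.18 (28.7-fold), and Ikbke, the kinase IKK epsilon, at 9.25 and 13.65 (21.1-fold). Sdc4, a heparan sulfate proteoglycan, was 19.0-fold higher and Pim2, a survival kinase, 18.2-fold. Tnip1, the A20-binding inhibitor of NF-kB, stood at 10.19 and 14.33 (17.7-fold). Ifit1, an antiviral RNA-binding protein, was 17.3-fold and Traf1, a TNF receptor adaptor, 16.4-fold higher.

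The 15 lowest differences above the floor on both knockout arrays ran from -4.35 to -2.66. Klf4, a zinc finger factor of monocyte differentiation, had a log2 signal of 11.93 unstimulated and 7.58 after LPS and was 20.4-fold lower. Prok2, a secreted chemotactic peptide of marrow neutrophils, stood at 12.43 and 8.50 and was 15.3-fold lower. Per2, a repressor of the circadian clock, stood at 10.93 and 7.08 and was 14.4-fold lower. All 3 were far above the floor unstimulated and much closer to it after LPS. Ccr2, the receptor of monocyte chemoattractants, stood at 10.93 and 7.39 (11.6-fold lower), and its other probe sets, all below the floor after LPS, gave bounds of -1.64, -1.01 and -0.34. Il18r1, a chain of the interleukin-18 receptor, was 9.67-fold, Ada, adenosine deaminase, 9.29-fold and Foxd4, a forkhead factor, 8.99-fold lower. Il1r2, the decoy receptor for interleukin-1, stood at 14.59 and 11.54 (8.26-fold lower). It remained far above the floor after LPS.

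Rgs2, which switches off G proteins, stood at 13.49 and 10.52 (7.84-fold lower), with other probe sets at -3.34, -3.02 and a bound of -0.08. Atrx, a chromatin remodeller, was 7.14-fold lower and its 5 other probe sets ranged from -2.48 to -0.05, with bounds for 3 of them. Cass4, an adhesion scaffold, was 7.09-fold lower, Pnn, a splicing-associated protein, 6.60-fold, Frat2, a regulator of GSK3, 6.49-fold and Sfxn5, a mitochondrial carrier, 6.41-fold. For Sfxn5 the other probe set gave a bound of -0.17. Fos, the AP-1 subunit, stood at 13.27 and 10.61 (6.32-fold lower). Genes that passed below the floor after LPS were led by Fosb, a further AP-1 subunit (9.92 and 5.48, at least 8.74-fold lower), Car1, an erythroid carbonic anhydrase (9.86 and 5.69, at least 8.36-fold), and Gpld1, a phospholipase that cleaves lipid anchors (9.73 and 6.11, at least 7.61-fold). Ahr, the aryl hydrocarbon receptor, was at least 6.27-fold, Hemgn, an erythroid nuclear protein, at least 5.73-fold and Sycp2, a meiotic protein, at least 5.21-fold lower. Ccl2, the ligand of Ccr2, was at least 5.05-fold, Plcb1, a phospholipase, at least 4.94-fold, Eps8, an actin regulator, at least 4.17-fold and Aqp1, a water channel, at least 4.11-fold lower. With the mean over probe sets, Plcb1 went from a bound of -2.31 to -0.01 and Ahr from a bound of -2.65 to -0.85, and neither was called. Other probe sets of Eps8 gave bounds of -1.92 and -0.42, and those of Per2 bounds of -2.78 and -0.93.

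**Figure D2:**
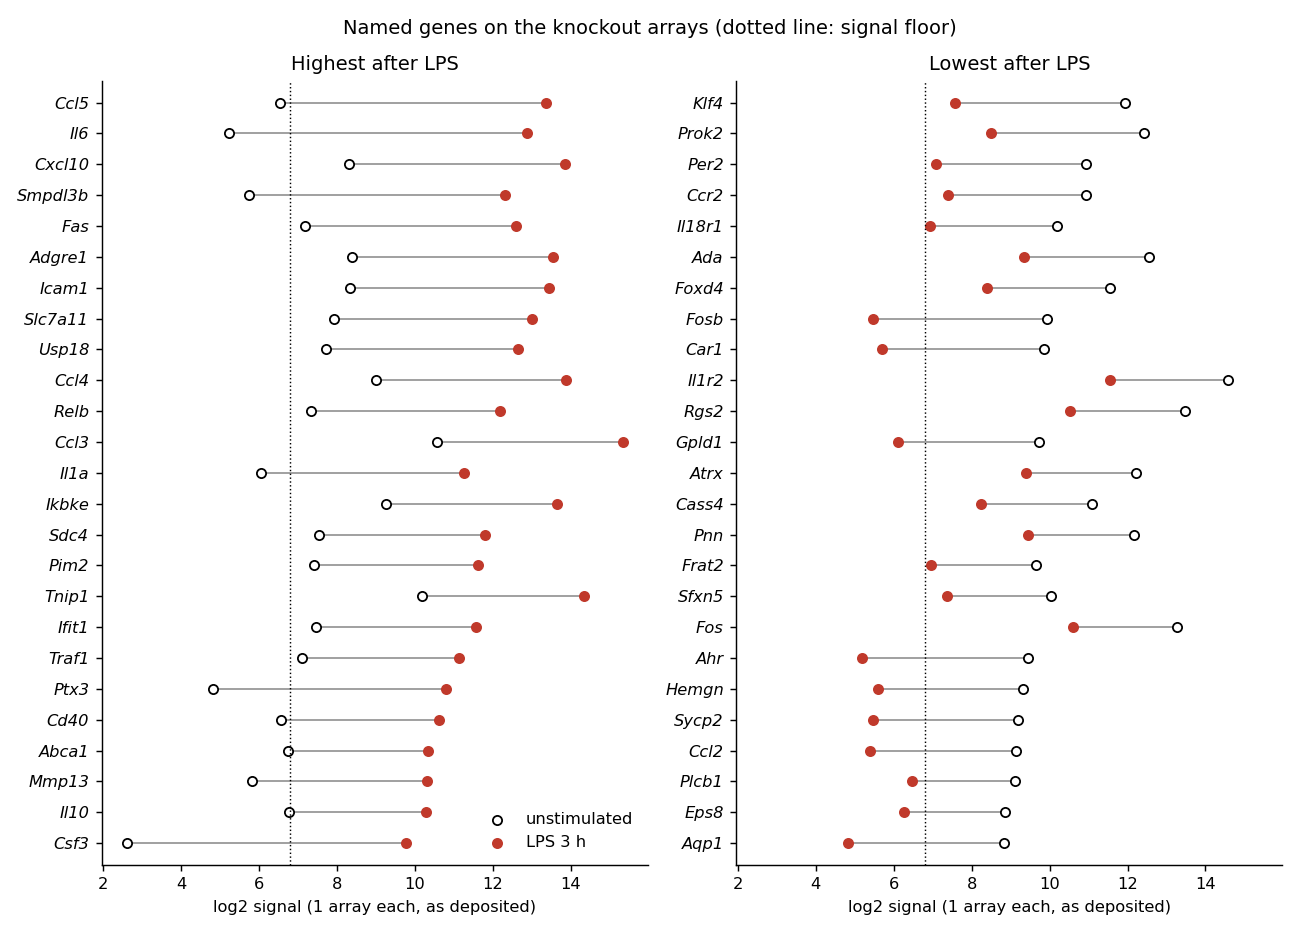
Deposited log2 signal of the 25 highest (left) and 25 lowest (right) named genes on the unstimulated knockout array (open circles) and after 3 h of LPS (red circles), 1 array per circle; the dotted line is the floor of 6.80. Cxcl10 moves from 8.31 to 13.85 and Klf4 from 11.93 to 7.58, and genes with a circle left of the dotted line are lower bounds.

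The stretches before the start sites of some of these genes are shown because NF-kB and interferon regulatory factors bind short motifs that can be read in them. Shown are 250 bases before the start in RefSeq (GRCm38.p6) of the 7 highest named genes that hold a whole match there to the kappaB consensus of NF-kB or to the core of the interferon-stimulated response element (GAAANNGAA). Of the 25 highest named genes 17 had a window, and 8 of these, Fas, Icam1, Slc7a11, Il1a, Ikbke, Pim2, Traf1 and Abca1, held neither motif. Capitals mark the matches, on either strand.
Il6, chr5:30012864-30013113, plus strand: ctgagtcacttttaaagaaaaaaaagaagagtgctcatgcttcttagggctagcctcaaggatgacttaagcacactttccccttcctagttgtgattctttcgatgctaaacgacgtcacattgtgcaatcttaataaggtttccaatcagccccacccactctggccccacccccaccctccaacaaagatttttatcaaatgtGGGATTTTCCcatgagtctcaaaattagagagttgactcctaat
Cxcl10, chr5:92348890-92349139, minus strand: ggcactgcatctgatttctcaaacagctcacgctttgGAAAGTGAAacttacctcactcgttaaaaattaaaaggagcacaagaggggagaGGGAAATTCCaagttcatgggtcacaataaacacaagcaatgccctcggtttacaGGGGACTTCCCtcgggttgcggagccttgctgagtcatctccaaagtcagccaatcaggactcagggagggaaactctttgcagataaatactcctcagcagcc
Smpdl3b, chr4:132757172-132757421, minus strand: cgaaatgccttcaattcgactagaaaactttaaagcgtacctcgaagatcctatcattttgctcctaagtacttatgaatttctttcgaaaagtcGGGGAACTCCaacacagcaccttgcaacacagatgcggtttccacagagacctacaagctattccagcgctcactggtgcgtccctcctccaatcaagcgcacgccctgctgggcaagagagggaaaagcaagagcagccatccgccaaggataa
Ccl3, chr11:83649379-83649628, minus strand: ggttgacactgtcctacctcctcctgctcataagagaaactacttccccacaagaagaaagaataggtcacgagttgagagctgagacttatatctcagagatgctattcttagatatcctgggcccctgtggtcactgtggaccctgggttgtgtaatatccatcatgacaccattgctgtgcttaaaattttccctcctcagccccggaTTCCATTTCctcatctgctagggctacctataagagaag
Sdc4, chr2:164443189-164443438, minus strand: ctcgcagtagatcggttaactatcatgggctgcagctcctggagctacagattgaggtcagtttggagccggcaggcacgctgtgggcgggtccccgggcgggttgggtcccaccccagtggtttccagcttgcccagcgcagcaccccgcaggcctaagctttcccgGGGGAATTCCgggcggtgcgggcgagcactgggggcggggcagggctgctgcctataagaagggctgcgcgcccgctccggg
Tnip1, chr11:54962941-54963190, minus strand: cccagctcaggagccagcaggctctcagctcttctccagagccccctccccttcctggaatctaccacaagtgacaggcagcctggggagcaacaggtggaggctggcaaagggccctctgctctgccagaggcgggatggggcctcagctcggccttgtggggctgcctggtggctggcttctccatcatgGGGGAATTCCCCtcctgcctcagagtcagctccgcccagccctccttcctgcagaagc
Ifit1, chr19:34640639-34640888, plus strand: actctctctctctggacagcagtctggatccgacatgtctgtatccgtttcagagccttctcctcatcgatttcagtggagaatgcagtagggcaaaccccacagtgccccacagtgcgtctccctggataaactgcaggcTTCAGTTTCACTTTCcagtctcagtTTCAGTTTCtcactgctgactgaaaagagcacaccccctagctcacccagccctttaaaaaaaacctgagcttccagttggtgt
Il6 held 1 kappaB match, 44 bases before the start. Cxcl10 held 4 kappaB matches, counted per strand, at 159, 104 and 103 bases, and 1 interferon element core at 213 bases. Ifit1 held 3 interferon element cores at 109, 103 and 84 bases, 2 of which overlap. The same stretch is given for the 2 lowest named genes with a window, with matches to AP-1 (TGANTCA) and the CArG box of serum response factor in capitals.
Klf4, chr4:55532476-55532725, minus strand: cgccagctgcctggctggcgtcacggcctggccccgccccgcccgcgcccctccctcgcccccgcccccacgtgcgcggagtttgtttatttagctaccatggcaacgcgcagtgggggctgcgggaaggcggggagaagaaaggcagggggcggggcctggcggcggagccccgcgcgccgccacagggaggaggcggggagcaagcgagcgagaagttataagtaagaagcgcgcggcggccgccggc
Prok2, chr6:99726393-99726642, minus strand: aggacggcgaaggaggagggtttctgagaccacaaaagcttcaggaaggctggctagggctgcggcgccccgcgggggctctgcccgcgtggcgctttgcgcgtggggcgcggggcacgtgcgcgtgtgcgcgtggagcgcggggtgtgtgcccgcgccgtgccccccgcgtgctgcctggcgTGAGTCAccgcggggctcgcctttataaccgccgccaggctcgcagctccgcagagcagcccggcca
Klf4 held no such match in this window and Prok2 held 1 AP-1 match, 67 bases before the start. A match is a string of letters and not a measured binding site.

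Windows of 300 bases, 250 before and 50 after the start, were then searched for 8 motifs on both strands, where matches of different motifs may overlap. Of 32851 RefSeq windows the first listed for each gene was kept, which left 27025 genes with 1 window each. Among these were 507 of the 634 higher and 627 of the 765 lower genes. The kappaB consensus stood in 16.4% of the windows of higher genes (83) and in 7.97% of lower genes (50). It stood in 9.63% of measured genes that were neither and in 8.18% of all genes with a window. The interferon element core stood in 10.1%, 7.66%, 7.05% and 8.57%, in the same order. AP-1 stood in 7.89%, 4.78%, 4.70% and 7.93%, and the CArG box in 0.592%, 2.39%, 1.29% and 1.57%. The share of higher genes was thus the largest for the kappaB and interferon letters. For the CArG letters the share of lower genes was the largest, on only 15 lower and 3 higher genes. No test was made. The E-box CACGTG, which clock factors and MYC bind, stood in 8.88%, 13.1%, 10.7% and 7.24%. The STAT element TTCNNNGAA stood in 8.88%, 7.97%, 6.37% and 8.47%, the cyclic AMP element TGACGTCA in 2.96%, 3.67%, 3.51% and 1.88%, and the antioxidant element core TGACNNNGC in 14.4%, 16.3%, 15.2% and 12.5%. Among gene lists, 5 of 8 NF-kB and IkB genes with a window held the kappaB consensus and 15 of 32 antiviral interferon-stimulated genes held the interferon element core. None of 18 AP-1 and immediate-early genes held the AP-1 motif, though 6 held the kappaB consensus, and 5 of 22 antioxidant genes held the antioxidant element core.

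Chemokine genes were mostly higher in knockout cells after LPS. The 3 measured genes of 6 listed that attract neutrophils through CXCR2 were all called higher. Cxcl2 had a log2 signal of 12.12 unstimulated and 14.87 after LPS (6.72-fold), Cxcl1 6.97 and 9.24 (4.81-fold) and Cxcl3 7.07 and 8.80 (3.33-fold). Cxcl1 and Cxcl3 were near the floor unstimulated, Cxcl2 was not. Of 8 CC chemokines 4 were higher and 1 lower (median log2 difference 0.91). Beside Ccl5, Ccl4 and Ccl3, Ccl9 had a difference of 1.74. Ccl6, which marrow myeloid cells make without stimulation, was at -0.98, just short of 2-fold, and Ccl12 and Ccl25 were at 0.09 and -0.02. Of the interferon-inducible chemokines measured, Cxcl16 was at 2.69 and Cxcl11 at a bound of 1.92, so that with Cxcl10 all 3 were higher.

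Secreted cytokines were called higher in 11 of 18 and lower in 2, with a median of 1.81. Tnf, the prototype inflammatory cytokine, had 10.68 and 13.54 (7.27-fold higher). Il12a, which encodes the p35 chain of interleukin-12, had 7.47 and 10.71 (9.44-fold). Both were above the floor before LPS, whereas Csf2, Il23a and Lta, which encode GM-CSF, a chain of interleukin-23 and lymphotoxin alpha, were below it and had bounds of 1.95, 1.65 and 2.13. Ltb, its partner lymphotoxin beta, was at 2.67, Ebi3, a subunit of interleukin-27 and interleukin-35, at 2.07 and Tgfb1 at 1.67. Il12b, Lif and Ifnb1 crossed the floor only after LPS, with bounds of 0.51, 0.45 and 0.43 that were not called. Csf1, the macrophage growth factor, was lower at -1.96 and Osm, oncostatin M, at -1.14. Vegfa and Il15 were neither, at -0.23 and -0.24.

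The interleukin-1 family divided by role. Of 13 measured genes 6 were higher and 4 lower, with a median of -0.03 that was 0.19 with quantile normalization, 0.07 with equal medians and 1.30 with the floor at the 75th percentile. The ligands Il1b (12.22 and 15.29, 8.39-fold higher), Il1f9 (2.56), Il1f6 (a bound of 2.50) and Il18 (2.07) were higher, as was the receptor antagonist Il1rn (10.07 and 13.12, 8.29-fold). The genes that were lower encode receptors and a binding protein. Beside Il1r2 and Il18r1, the accessory chain Il1rap was at -2.40, with other probe sets at -1.83 and -0.72, and the soluble inhibitor Il18bp had a bound of -1.50. Il18rap and Sigirr, also receptor chains, were at -0.71 and a bound of -0.67 and were neither.

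Receptor chains for other cytokines had 5 of 18 higher and 2 lower (median -0.13). Both chains of the interleukin-10 receptor were higher, Il10ra at 3.00 and Il10rb at 1.80. The interferon receptor chains Ifngr2 and Ifnar1 were at 2.05 and 1.38, and their other probe sets stood at 0.75 and 0.18. Il13ra1 was lower at -1.87 and Il15ra had a bound of -1.61. The G-CSF receptor Csf3r, at 0.31, and the shared chain Csf2rb, at -0.14, were neither. Among 17 TNF ligands and receptors 7 were higher and 2 lower (median 0.38, but -0.22 on the spike-in scale). Tnfrsf1b, the second TNF receptor, had 10.01 and 13.31 (9.88-fold higher), while Tnfrsf1a, the death domain receptor, was at 0.38. Tnfsf14, the ligand LIGHT, was lower at -2.60, with a bound of -0.32 for another probe set, and Tnfrsf18 was at -1.61.

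Among genes that sense LPS and carry its signal, the largest differences belonged to kinases, adaptors and feedback inhibitors. Of 13 Toll-like receptors and LPS-binding genes 3 were higher and 2 lower (median 0.24, but -0.15 on the spike-in scale). Cd14 had 13.90 and 15.42 (2.87-fold higher) and Ly96, which encodes MD-2, 7.90 and 9.09 (2.29-fold), while Tlr4 was at -0.51 and neither. Nod1, a sensor of bacterial peptidoglycan, was at 1.15. Ly86, the MD-1 partner of the Toll-like receptor relative RP105, was lower at -1.84 and Lbp, the LPS-binding protein, at -1.50. Tlr2 was at 0.94, just short of 2-fold. Of 25 adaptors and kinases 7 were higher and 1 lower (median 0.43, but -0.18 on the spike-in scale). Beside Ikbke and Traf1, Irak3, an inactive kinase that blocks the pathway, had 10.83 and 14.40 (11.9-fold higher), Map3k8, the kinase TPL2, 9.83 and 12.84 (8.02-fold) and Irak2 8.75 and 11.57 (7.06-fold). The proximal components Myd88, Ticam1, Irak1 and Traf6 were at 0.74, -0.02, -0.66 and -0.46 and were neither.

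The NF-kB system itself had 4 of 10 subunits and IkB proteins higher and none lower (median 0.72). Nfkb2, the p100 subunit, had 7.66 and 11.58 (15.2-fold higher), and with Relb it forms the non-canonical dimer. Nfkbie, the inhibitor IkB epsilon, had 9.12 and 12.55 (10.8-fold) and Nfkbib was at 1.85. Nfkbia, the IkB alpha gene, was at 0.74 and stood at 14.80 before LPS already. Rela and Rel were at 0.46 and 0.20. Of 18 ubiquitin regulators of NF-kB 6 were higher and 1 lower (median 0.46, but -0.15 on the spike-in scale). Tnfaip3, the deubiquitinase A20, had 10.95 and 13.79 (7.14-fold higher). N4bp1 and Birc3, a caspase-cleaved inhibitor and a ubiquitin ligase, were at 1.99 and 1.83, and Tnip2, a relative of Tnip1, was lower at -1.30.

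MAP kinase genes and their phosphatases are given apart, beside 6.62% higher and 7.99% lower over all measured genes. Of 23 cascade genes 2 were higher (8.70%, near the share of all genes) and 0 lower. Their median of -0.02 was 0.08 with quantile normalization and with equal medians. Mapkapk2, the p38 substrate that stabilises cytokine transcripts, was 5.16-fold higher, a difference of 2.37, and Mapk14, p38 alpha, was at 1.04, its other probe sets ranging from -0.38 to a bound of 1.84. Of 13 phosphatases 3 were higher and 3 lower (median 0.09, but -0.52 on the spike-in scale). Dusp16, specific for JNK and p38, had 10.48 and 13.49 (8.07-fold higher), while its other probe set was at 0.25. Dusp2 was at 1.99, and Dusp6, Dusp10 and Dusp1 were lower, Dusp6 with 12.82 and 10.82, Dusp10 with a bound of -1.66 and Dusp1 at -1.32. RNA-decay factors had 3 of 16 higher and 2 lower (median 0.07, but -0.54 on the spike-in scale). Zfp36l1, which binds AU-rich elements, had 10.67 and 13.11 (5.42-fold higher), and the nucleases Zc3h12a, also called Regnase-1, and Zc3h12c were at 2.38 and 2.11, with other probe sets at 0.91 and a bound of 0.30. Zfp36, tristetraprolin, was at 0.12, and the deadenylase adaptors Tob1 and Zfp36l2 were lower at -1.69 and -1.13.

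Of 24 genes for AP-1 and other immediate-early factors, 4 were called higher and 5 lower (median -0.13). The lower genes included both Fos and Jun, the classical AP-1 pair. Jun had 13.33 and 11.50 (3.55-fold lower), Atf3 was at -1.34 and Nr4a2 at -1.36, the latter with bounds from -1.69 to -0.05 for its other probe sets. Batf, a dimer partner of Jun proteins, had 9.43 and 11.64 (4.64-fold higher), Ier3 11.79 and 13.78 (3.96-fold), and Nr4a1, an orphan nuclear receptor, was at 1.67. Junb and Fosl2, at 0.63 and 0.40, and Egr1, at -0.83, were neither. Kruppel-like factors had 4 of 12 lower and 0 higher (median -0.66). Beside Klf4, Klf10, a target of TGF-beta, had 12.26 and 10.19 (4.21-fold lower), Klf9 was at -1.75 and the erythroid factor Klf1 had a bound of -1.05. Klf2 and Klf6, both expressed in resting leukocytes, were at -0.79 and -0.53.

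Clock genes had 1 of 15 higher and 4 lower (median -0.27). With Per2, the repressor Per1 had 9.58 and 7.43 (4.43-fold lower). Nr1d2, a REV-ERB receptor, had a bound of -1.74 and Nfil3, a bZIP factor of the clock output, was at -1.51. Cry1, a cryptochrome, had 11.03 and 12.77 and a difference of 1.75. The activators Arntl and Clock were at a bound of 0.44 and at 0.35.

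Within knockout cells, the interferon programme was higher after LPS than without it. Of 42 antiviral interferon-stimulated genes 24 were higher and 0 lower (median 1.11, and 0.59 on the spike-in scale). Beside Usp18 and Ifit1, Oasl1, an inhibitor of IRF7 translation, had 7.42 and 11.39 (15.7-fold higher), Rsad2, the antiviral enzyme viperin, 9.58 and 13.23 (12.6-fold) and Parp14, an ADP-ribosyltransferase, 8.78 and 12.05 (9.63-fold). All 3 were above the floor before LPS. Ifit3 and Mx1, which were below the floor unstimulated, had bounds of 2.53 and 2.38. The remaining called genes lay between 1.03 (Oas1a) and 2.29 (Slfn5, a bound). Genes that were not called included Ifitm2 and Ifitm3, membrane proteins that block viral entry, at -0.07 and -0.06, with log2 signals over 14 on both arrays, and Samd9l was at -0.49.

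Interferon-inducible GTPases, which attack vacuoles that hold pathogens, had 4 of 6 members called higher and 0 lower (median 1.90). Irgm2 had 8.16 and 11.90 (13.4-fold higher), Irgm1 was at 2.46, Gbp2 at 2.10 and Igtp at 1.70. Gbp7 was at -0.59. Of 9 interferon regulatory factors 3 were higher and 1 lower (median 0.70). Irf9, the DNA-binding part of the complex that type I interferon activates, was at 2.23, Irf7 at 1.15 and Irf5 at 1.28, the latter with another probe set at -0.12. Irf8, a factor of the monocyte branch, was lower at -1.39. Irf1 and Irf3 were at 0.70 and 0.60. Of 23 JAK, STAT and SOCS genes 8 were called higher and 2 lower (median 0.28, but -0.33 on the spike-in scale). The feedback inhibitors Cish (8.36 and 11.31, 7.74-fold), Socs3 (11.04 and 13.18, 4.40-fold) and Socs1 (a bound of 2.11) were higher, Tyk2 and Jak2 were at 1.82 and 1.40, and Stat3 was at -0.66.

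**Figure D3:**
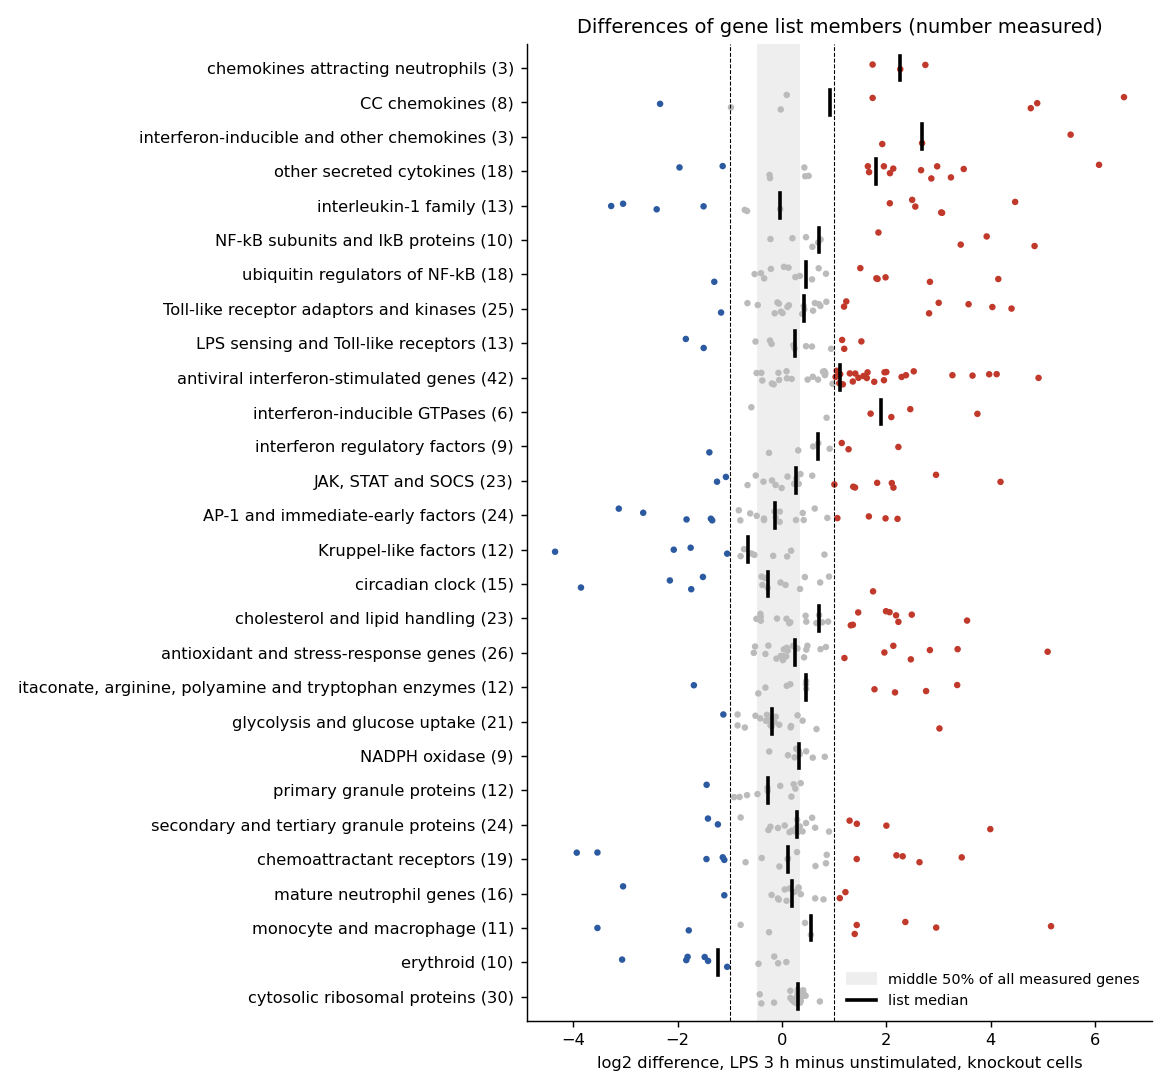
Log2 difference of knockout cells after 3 h of LPS minus unstimulated for each measured member of 28 gene lists (points; red at least 2-fold higher, blue at least 2-fold lower, grey neither), with the number measured in brackets, list medians as black bars and the middle 50% of all measured genes shaded. Chemokines, secreted cytokines and interferon-stimulated genes lie to the right and erythroid markers to the left, while 33 of the 63 list medians change sign when arrays are scaled on spike-in controls, such as 0.24 for Toll-like receptors.

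Genes of a neutrophil's granules and oxidase are given by group, beside 6.62% higher and 7.99% lower over all measured genes. The lower share was 8.33% in both granule lists, near that of all genes. The higher share was 16.7% for secondary and tertiary granule genes. Of 12 primary granule genes 0 were higher and 1 lower (median -0.28). Nkg7 was at -1.44, and Mpo, myeloperoxidase, Elane, neutrophil elastase, and Prtn3, proteinase 3, were at -0.81, -0.67 and -0.27. Of 24 secondary and tertiary granule genes 4 were called higher and 2 lower (median 0.29, but -0.02 with quantile normalization and -0.32 on the spike-in scale). Ltf, lactoferrin, Lcn2, the siderophore binder, Camp, cathelicidin, and Mmp9, gelatinase, all lay between 0.05 and 0.29. Their log2 signals were near 15 on both arrays. Beside Ptx3, Slc11a1, a metal transporter of the phagosome, had 10.72 and 12.72, and the stefin genes Stfa3 and Stfa2l1 were at 1.44 and 1.30, while Lrg1 and Orm1 were lower at -1.42 and -1.23. None of 9 NADPH oxidase genes was called at 2-fold in either direction, and their median of 0.32 was -0.29 on the spike-in scale. Cybb and Ncf1, which encode gp91phox and p47phox, were at 0.34 and 0.82.

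Of 26 antioxidant genes 7 were called higher and 0 lower (median 0.25, but -0.31 on the spike-in scale). Sod2, the mitochondrial superoxide dismutase, had 11.95 and 15.32 (10.3-fold higher), and its 3 other probe sets lay between a bound of 3.01 and 4.38. Srxn1 and Nqo1, targets of the stress factor NRF2, crossed the floor with bounds of 2.84 and 1.96. Sqstm1, the p62 autophagy receptor, was at 2.47, with a bound of 0.97 for another probe set, Hmox1, haem oxygenase, had 9.35 and 11.49 (4.39-fold) and Txnrd1 was at 1.20. Gclm and Gclc, the subunits of the enzyme that makes the glutathione precursor, were at -0.02 and -0.32. Cat and Gpx1, which break down peroxides, were at -0.26 and 0.03. Nfe2l2, the NRF2 gene, was at 2.05, but another of its probe sets was at -1.77.

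Genes of adhesion and migration had members on both sides. Among 23 adhesion molecules 5 were higher and 1 lower (median 0.46, but -0.11 on the spike-in scale). Beside Icam1 and Sdc4, Vcam1 had 9.54 and 12.50 (7.76-fold higher), with other probe sets at 2.20 and 0.80, and the integrin chains Itgal and Itgax were at 1.46 and 1.25. Itgam, CD11b, and Itgb2, CD18, were at 0.64 and 0.30. Selp, P-selectin, had 9.90 and 7.66 (4.73-fold lower). Of 19 chemoattractant receptors 5 were called higher and 5 lower (median 0.12, but -0.41 on the spike-in scale). Ccrl2, a receptor that presents chemerin without signalling, had 8.98 and 12.43 (10.9-fold higher) and Hcar2, the niacin receptor, was at 2.64. C3ar1 and Ccr7, receptors of complement C3a and of lymph node chemokines, had bounds of 2.31 and 2.19. Ccr1 was lower at -1.45, and the marrow retention receptor Cxcr4 and the marrow exit receptor Cxcr2 were at -1.13 and -1.11. The formyl peptide receptor Fpr2 was at 0.29.

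Regulators of G-protein signalling had 1 of 18 higher and 2 lower (median 0.01, but -0.54 on the spike-in scale), a share near the 14.6% of all measured genes that were called in either direction. With Rgs2, Rgs18, a leukocyte and platelet regulator, had 12.70 and 10.26 (5.42-fold lower). Gna15, a G protein of blood cells, was at 1.22. Of 34 actin and motility genes 3 were called higher and 3 lower (median 0.29, but -0.32 on the spike-in scale). Marcksl1 and Marcks, actin-binding substrates of protein kinase C, had 12.19 and 15.10 (7.52-fold higher) and 11.39 and 13.92 (5.77-fold). All 3 other probe sets of Marcksl1 lay between 3.05 and 3.68, and those of Marcks between -0.66 and 2.41. Rhoh and Rhob, small GTPases, were lower at -1.57 and -1.25.

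Death receptor and caspase genes had 6 of 21 higher and 2 lower (median 0.18, but -0.43 on the spike-in scale). Fas was the highest, and Gadd45b, a stress sensor, had 10.74 and 13.05 (4.97-fold higher). Cflar, the inhibitor of caspase-8, was at 1.99, with other probe sets from -1.37 to 1.89. Casp6, an executioner caspase, had 9.48 and 7.30 (4.52-fold lower), and Gadd45g was at -1.94. Casp8 and Fadd were at 0.74 and 0.56. Of 13 BCL2 relatives 2 were higher and 1 lower (median 0.41, but -0.21 on the spike-in scale). Bcl2l11, the pro-death protein BIM, had 10.77 and 12.67 (3.71-fold higher), its 4 other probe sets between 1.60 and 2.44, and Bmf, a relative, had a bound of 1.78. Mcl1, on which neutrophil survival depends, stood at 14.56 and 14.27, a difference of -0.29. Bcl2 was lower at -1.39, its other probe sets, all below the floor after LPS, giving bounds from -0.66 to -0.08.

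Of 15 inflammasome genes 5 were called higher and 0 lower (median 0.28, but -0.33 on the spike-in scale). Beside Il1b and Il18, Mefv, the pyrin sensor, had 10.09 and 12.80 (6.56-fold higher), Nlrp3 8.77 and 10.79 (4.05-fold), and P2rx4, a purinergic channel, was at 1.22. Casp1 and Pycard, the caspase and its adaptor, were at -0.07 and -0.59, and Gsdmd, which forms the membrane pore, was at 0.39. The called genes are the cytokine substrates, sensors and a channel.

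Enzymes that make lipid mediators were higher at the prostaglandin E2 branch. Of 14 genes 5 were higher and 0 lower, with a median of -0.01 that was 0.05 with quantile normalization and 0.09 with equal medians. Ptgs2, the inducible cyclooxygenase, had 9.07 and 12.34 (9.62-fold higher), Ptges, the inducible prostaglandin E synthase, 7.29 and 10.07 (6.87-fold), and Ptges2 was at 1.43. The leukotriene genes Alox5, Alox5ap and Lta4h were at -0.10, -0.06 and -0.13. Of 23 cholesterol and lipid genes 9 were called higher and 0 lower (median 0.71). Beside Abca1, 7 of the 9 are genes of sterol synthesis or its regulator, namely Fdft1 (10.48 and 12.97, 5.61-fold higher), Sqle (2.23), Cyp51 (2.19), Hmgcs1 (2.06), Srebf2 (1.46), Idi1 (1.36) and Fdps (1.32). Acsl5, which activates fatty acids, was at 1.99. Other probe sets stood at 1.67 for Cyp51, with a further one that barely reached the floor after LPS, and at 0.55 for Srebf2. Fasn, fatty acid synthase, was at -0.49.

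Enzymes of itaconate, arginine, polyamine and tryptophan metabolism had 4 of 12 higher and 1 lower (median 0.46, but -0.15 on the spike-in scale). Acod1, which makes itaconate, had 11.53 and 14.89 (10.3-fold higher), Gch1, for the cofactor tetrahydrobiopterin, was at 2.17 and Arg2, the mitochondrial arginase, at 1.77. Nos2 and Arg1, the classical macrophage enzymes, were not above the floor. Srm, spermidine synthase, was lower at -1.69. Glycolysis genes had 1 of 21 higher and 1 lower (median -0.20). The transporter Slc2a6 had 8.81 and 11.83 (8.10-fold higher), Hk2 was at 0.40, Ldha at -0.12 and Pfkfb3 at -0.05, and Pdk1 was lower at -1.12. Of 15 hypoxia genes 2 were higher and 0 lower (median 0.17, but -0.44 on the spike-in scale).

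Amino acid and unfolded protein response genes had 5 of 27 higher and 3 lower, with a median of -0.02 that was 0.08 with equal medians. Phgdh and Asns, which make serine and asparagine, were at 2.06 and 1.47, and Trib3 and Ddit4, stress-induced regulators, at 1.89 and 1.52. The endoplasmic reticulum chaperone genes Hspa5 and Hsp90b1 were at -0.36 and -0.90, and Dnajb9 was lower at -1.54. Heat shock proteins had 0 of 16 higher and 1 lower (median -0.43). Dnajb4, a cochaperone, had 10.43 and 8.24 (4.56-fold lower), and Hspd1 and Hspe1, the mitochondrial chaperonins, were at -0.97 and -0.88. Adenosine metabolism had 0 of 11 higher and 2 lower (median -0.38), Ada and Ampd2, an AMP deaminase at -1.03. Of 25 solute carriers chosen for transport in leukocytes 7 were higher and 2 lower (median 0.16, but -0.45 on the spike-in scale), with Slc15a3, a lysosomal peptide transporter, at 2.20 and Slco4a1 at -1.61.

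Of 25 antigen presentation genes 6 were called higher and 2 lower (median 0.46, but -0.15 on the spike-in scale). Cd40 had a bound of 3.82, and the ligands Icosl and Cd274, which encode ICOS ligand and PD-L1, were at 1.83 and 1.47. Tap1 and Tapbp, of the class I peptide loading complex, were at 1.30 and 1.04. Cd86 was lower at -1.84 while another of its probe sets was at 1.96, so its direction is unsettled. Of 20 Fc receptors and C-type lectins 8 were called higher and 2 lower (median 0.47, but -0.14 on the spike-in scale). Clec2d, a ligand of an NK receptor, had 10.02 and 13.21 (9.13-fold higher). Clec4n, Clec4e and Clec4d, the lectins Dectin-2, Mincle and MCL, were at 1.57, 1.40 and 1.11. The inhibitory receptors Fcgr2b and Pirb were at 1.40 and -1.32. Cathepsin and lysosome genes had 2 of 19 higher, Ctsz (1.12) and Ctsd (1.05), and 1 lower, Ctse (-1.32), whose other probe set was at 0.21 (median 0.11, but -0.45 on the spike-in scale).

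Genes that identify the cells and genes of general upkeep are given beside 6.62% higher and 7.99% lower over all measured genes. Mature neutrophil genes had 2 of 16 higher and 2 lower, 12.5% each and so above both shares. Their median was 0.19, but -0.04 with quantile normalization and -0.42 on the spike-in scale. On both knockout arrays 16 of 16 were above the floor. The summed signal of this list was 309315 unstimulated and 344047 after LPS. S100a8 and S100a9, the calprotectin subunits, were at 0.36 and 0.32. Granulocyte transcription factors had 2 of 29 higher and 1 lower (median 0.22, but -0.39 on the spike-in scale), with Spi1, PU.1, at 0.32, Cebpb at 0.69 and Ets2 at 1.05. Of 34 cell cycle genes Cdkn1a, the p21 inhibitor, was higher at 1.13, and the others were neither (median -0.26). Top2a and Mki67, at 0.07 and -0.95, were bright on both knockout arrays, with 13.21 and 13.28 and with 13.65 and 12.70. The part of dividing cells in these preparations was not tested. Housekeeping genes had 0 of 13 called (median 0.14), ribosomal proteins 0 of 30 (0.30) and proteasome subunits 0 of 33 (0.28), and these medians were -0.47, -0.31 and -0.33 on the spike-in scale. Of 34 respiratory chain genes 0 were higher and 1 lower, Cox7c at -1.64 (median 0.06, but -0.06 with quantile normalization and -0.55 on the spike-in scale).

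Magnetic separation leaves some other marrow cells, so markers of these were read on the same arrays. Erythroid markers had 6 of 10 lower and 0 higher (median -1.23, or -0.45 when the floor is the 75th percentile), and 9 of 10 were above the floor unstimulated against 4 of 10 after LPS. Beside Car1, the red cell membrane genes Slc4a1, Ermap and Rhag had bounds of -1.83, -1.81 and -1.42, and Car2 was at -1.48. The globin genes Hba-a1 and Hbb-b2 and the haem enzyme Alas2 were not above the floor on either knockout array. Only probe sets with a single gene symbol were read, so any globin signal on probe sets with several symbols was not seen. The summed erythroid signal was 8207 unstimulated and 3712 after LPS in knockout cells, and 5784 and 3162 in wild-type cells. Car1 and Klf1 belong to this list, so the sum includes them. Hemgn and Aqp1, which are not in the list, were lower as given above. The part of red cell precursors in those differences was not tested. Of 4 platelet markers 2 were lower, Pf4 at -1.47 and Clec1b with a bound of -1.58 (median -0.81), the summed signal being 1361 and 817.

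Monocyte and macrophage markers had 5 of 11 higher and 2 lower (median 0.55, but -0.08 on the spike-in scale). Csf1r, the CSF1 receptor, had 11.91 and 14.27 (5.15-fold higher), its other probe sets at 2.38 and 2.31, and Adgre1 and Vcam1 were higher as given above. Ccr2 and F13a1, genes of inflammatory monocytes, were lower, F13a1 at 14.00 and 12.21 (3.45-fold). Cx3cr1 and Spic, both below the floor unstimulated, were also higher, with bounds of 1.43 and 1.39. Mertk was below the floor after LPS, with a bound of -0.25, and was neither. The list members Mrc1, C1qa, C1qb, C1qc, Cd163 and Ms4a7 were not above the floor on either knockout array. The summed signal of the list was 51516 and 79532 in knockout cells and 52617 and 81559 in wild-type cells. The sum was higher after LPS, but Adgre1 and Csf1r, which were higher, and Ccr2 and F13a1, which were lower, are part of it. In the chemokine and secreted cytokine lists the called genes were higher except Ccl2, Csf1 and Osm, which were lower. Tnfsf14, a ligand of the TNF list, was also lower (-2.60). The part of monocytes in these differences was not tested.

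Markers of the other cells that marrow holds were read in the same way. Dendritic cell and MHC class II genes had 2 of 7 higher and 0 lower (median 0.52, but -0.07 on the spike-in scale), Itgax at 1.25 and H2-Ab1 (7.92 and 8.92) at the 2-fold limit, whose other probe sets were at 0.50 and a bound of 0.19. Eosinophil, basophil and mast cell markers had 1 of 5 lower, Siglecf, with a bound of -1.05. The 4 B cell markers had a median of 0.02, or -0.47 on the spike-in scale. None of 4 B cell, 8 plasma cell, 1 T and NK cell, 5 stem and progenitor and 3 stroma and endothelium markers was called at 2-fold. The B cell genes Cd79a, Ms4a1 and Pax5 and the T cell genes Cd3e, Cd4 and Cd8a were not above the floor. The plasma cell genes Jchain and Ighm stood at 14.67 and 14.42 and at 14.23 and 14.42.

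**Figure D4:**
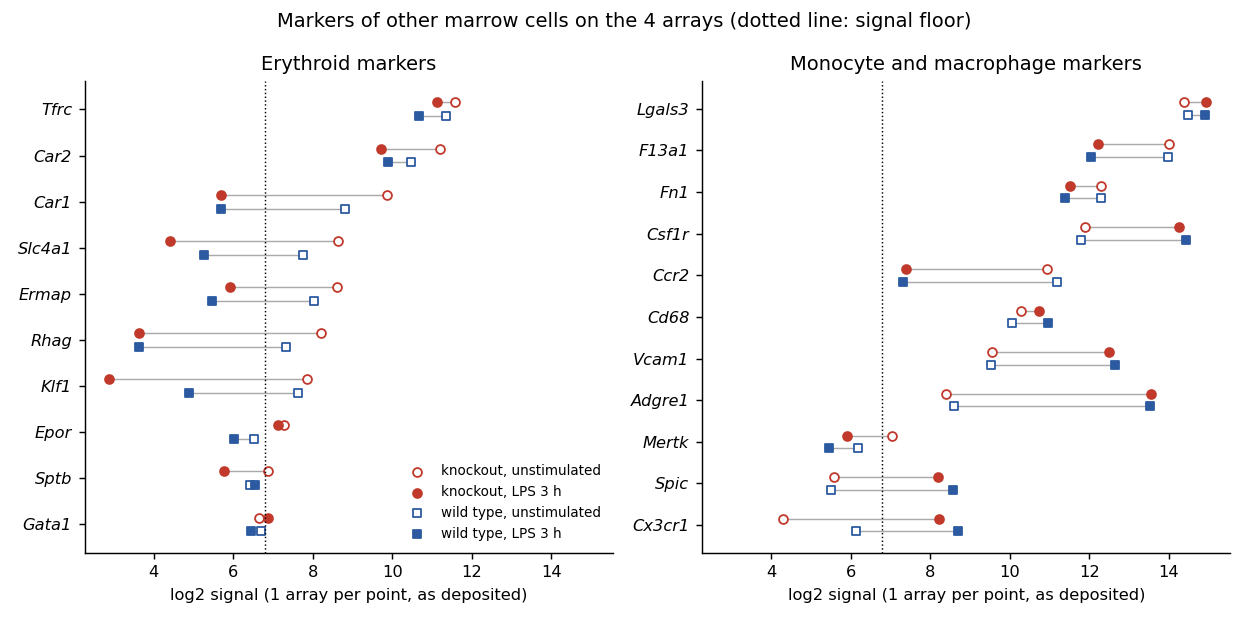
Deposited log2 signal of the measured erythroid (left) and monocyte and macrophage markers (right) on the 4 arrays, knockout as red circles and wild type as blue squares, open unstimulated and filled after 3 h of LPS; the dotted line is the floor of 6.80. Car1, Slc4a1, Ermap and Rhag lie below the floor after LPS in both genotypes, and Adgre1 and Csf1r lie far to the right of their unstimulated signals.

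Transcripts reported elsewhere as targets of miR-125 were spread around 0. Of 39 measured genes 6 were higher (15.4%) and 4 lower (10.3%), against 6.62% and 7.99% of all measured genes, and the median was 0.03, or -0.58 on the spike-in scale. The higher genes were Tnfaip3, Zfp36l1, Socs3 (2.14), Bmf, Sgpl1, which degrades sphingosine phosphate (1.13), and Mapk14. The lower genes were Ccr2, Dusp6, Jun and Bcl2. Il16, Ets1, Bak1, Traf6 and Il6ra, which have been studied as targets, were at 0.44, 0.44, -0.12, -0.46 and 0.13. Near the microRNA cluster on the chromosome 4 genes were measured, of which Has1, which makes hyaluronan, had a bound of 1.21 and the zinc finger gene Zfp160 was lower at -1.50, while Fpr2 and Zfp52 were neither.

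The wild-type arrays give the same comparison in miR-125a+/+ cells, where 693 of 9507 genes were higher (7.29%) and 921 lower (9.69%). Of 9220 genes measured in both genotypes, 632 were higher in knockout and 690 in wild-type cells, and 514 were higher in both, which is 81.3% of the knockout and 74.5% of the wild-type calls. For lower genes 543 were shared, 71.0% of 765 in knockout and 59.1% of 919 in wild-type cells. No gene was called in opposite directions. The genes called higher in knockout cells had a median difference of 1.56 there and 1.53 in wild type, and those called lower -1.33 and -1.36. Of the knockout calls, 118 higher and 222 lower genes were neither in wild type, and for 10 and 16 of these the wild-type difference had the other sign. Whether the genotypes differ was not tested, since 1 array per group allows no test.

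The lists gave the following wild-type values. Antiviral interferon-stimulated genes had 21 of 42 higher and 1 lower in wild type (median 1.01) against 24 and 0 in knockout cells, and other secreted cytokines had 11 of 18 higher and 2 lower in both. Cholesterol and lipid genes had 9 of 23 higher and 0 lower in both. Inflammasome genes had 5 of 16 higher and 3 lower in wild type (median -0.08) against 5 and 0 of 15 in knockout cells. The Toll-like receptor list had a median of -0.09 in wild type and 0.24 in knockout cells, with 4 of 15 higher and 2 lower against 3 and 2 of 13. The AP-1 list had 3 of 23 genes higher and 7 lower in wild type (median -0.46), and erythroid markers 0 of 8 higher and 2 lower (median -0.76). These differences between the genotypes were not tested.

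Values of single genes that lay far apart between the genotypes are given for the 8 highest and 8 lowest differences of the responses, chosen among genes above the floor on all 4 arrays and called in at least 1 genotype. Fas was at 5.40 in knockout and 3.72 in wild type, and its signals after LPS were the same (12.59 and 12.59) while the unstimulated ones were 7.19 and 8.87. Cxcl1 was at 2.27 and 0.26, with 6.97 and 9.24 on the knockout arrays and 8.11 and 8.37 on the wild-type arrays. In both cases the unstimulated knockout array was the lower. The other probe sets of Cxcl1 were at a bound of 1.76 and at 2.09 in knockout cells, and a floor at the 75th percentile left its difference at 0.70, short of 2-fold. Other probe sets were read on the knockout arrays only, so the wild-type value of each gene compared here rests on 1 probe set. Hs3st2, a heparan sulfate sulfotransferase, was at 0.95 and -1.37, Ammecr1 at 0.66 and -1.52, Mpp5, a polarity scaffold, at 1.67 and -0.25 and Zdhhc12, a palmitoyltransferase, at 1.41 and -0.41. The second probe set of Mpp5 was at 0.15 in knockout cells. Ttyh3, a chloride channel, was at -0.54 and -2.10 and Rab3a, a vesicle GTPase, at 0.38 and -1.11.

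At the other end, Hspa1b, an inducible HSP70 gene, was at -0.30 in knockout and 1.32 in wild-type cells. Its unstimulated signal was 12.30 in knockout and 11.41 in wild type. Gstm3, a glutathione transferase, was at -0.03 and 1.64, Hps5, of lysosome-related organelles, at -1.05 and 0.57, and Acp5, an acid phosphatase, at 0.66 and 2.07. Slc41a3, a magnesium carrier, was at -1.16 and 0.44, but another probe set was at 0.45 in knockout cells. Ipo4, a nuclear import receptor, was at -1.34 and 0.22, with another probe set at -0.37 in knockout cells, and Tpcn1, an endolysosomal channel, was at -1.16 and 0.40. Dusp16 was at 3.01 and 4.39, its signal after LPS being 13.49 and 13.50. Apart from Fas, Hspa1b and Dusp16, these genes had log2 signals below 10 on both knockout arrays.

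**Figure D5:**
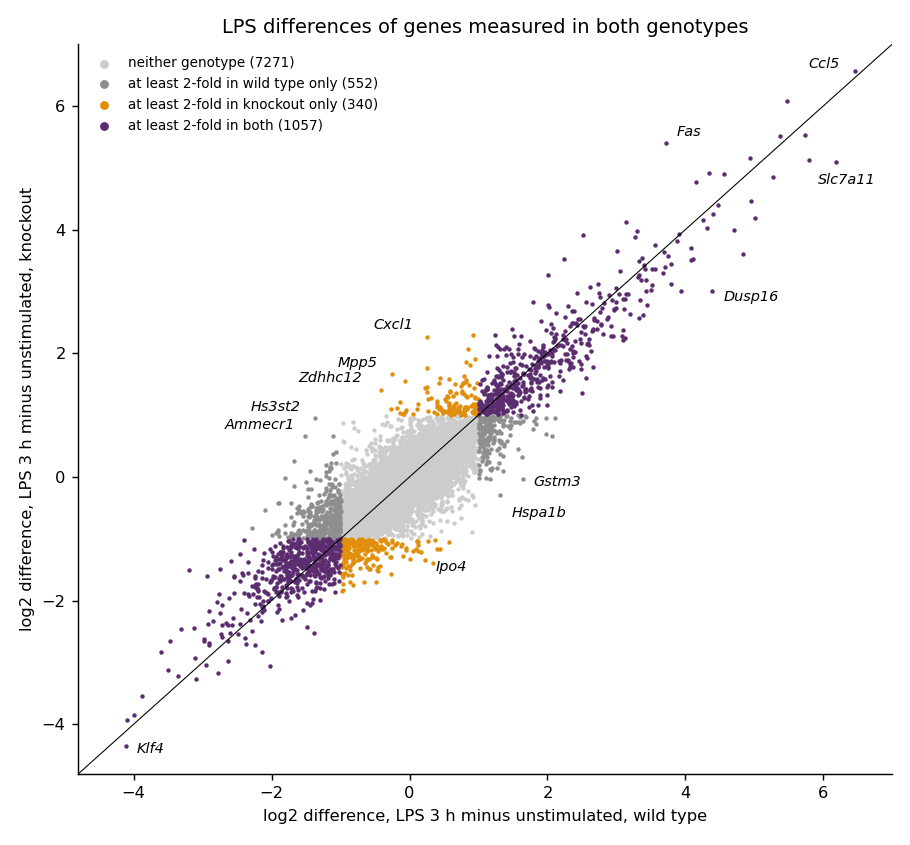
Log2 difference of LPS 3 h minus unstimulated in wild-type cells (horizontal axis) and knockout cells (vertical axis) for 9220 genes measured in both, 1 point per gene, coloured by whether the 2-fold rule was met in both, 1 or neither genotype; the line marks equal differences. The 514 genes higher and 543 lower in both lie along the line, and Fas, Cxcl1, Hs3st2 and Dusp16 are among the labelled genes off it.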

How the data were processed

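Gene expression was measured on Affymetrix mouse arrays in bone marrow neutrophils of 4 groups with 1 array each, on RNA pooled from 3 experiments per array, per the labels. The deposited values are log2 signals that the authors obtained with MAS5, per the submitters' processing notes, and the 2% trimmed mean of the unlogged signal was 500.003 to 500.004 on the arrays. A probe set's brightness limits its precision, and the arrays carry no replicate. Of 45101 probe sets, 34958 have 1 gene symbol in the platform annotation, 932 have several, 9211 have none and 64 are controls. Entrez identifiers of 34741 probe sets matched RefSeq (GRCm38.p6) and changed 0 symbols. For each of 18193 genes the brightest probe set by 4-array mean was used, and probe sets with several symbols were left out. The floor was the 60th percentile of all values (log2 6.80, signal 111), values below it were raised to it, and 2-fold was called. No test was made.

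Genes were named by rank: the 15 highest and lowest above the floor on both knockout arrays, the 10 highest and lowest bounds, and the 8 highest and lowest differences between the genotypes' responses, with 45 uncharacterised called genes passed over, beside members of 63 gene lists. The members and lists were chosen with earlier results of these data known. Alternatives were other scalings, floors, a 3-fold rule, means over probe sets and leaving out cross-hybridising probe sets. Scripts used Python 3.11.15, pandas 2.3.3, numpy 2.4.6, scipy 1.17.1 and matplotlib 3.10.9 and were tested on simulated data.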

Additional observations from a re-analysis of the deposited data

How the results depend on the processing

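Without replicates, the size of every difference carries an unknown error, and low signals limit what can be read. No paired analysis was possible because each group has a single array, and for the same reason no replicate could be left out. Scaling on the poly-A controls gave 314 higher and 2574 lower genes, and a 3-fold rule gave 306 and 200. A floor at the 75th percentile gave 412 lower and 445 higher genes. The other settings gave 518 to 809 higher and 626 to 997 lower genes. That higher floor also took the call from 12 of the named genes it left measured, against 6 with the mean over probe sets (Abca1, Ahr, Ipo4, Mpp5, Plcb1 and Slc41a3), 3 with quantile normalization, 1 with equal medians and 1 with spike-in scaling. Slc41a3 reversed to 0.038 in the mean over its probe sets, because its probe sets differ in sign.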

Other observations

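Families of gene symbols, chosen after their values were seen, showed the following counts in knockout cells. Of 75 mitochondrial ribosomal protein genes (Mrpl and Mrps), 0 were at least 2-fold higher and 0 lower. Of 35 Dnaj cochaperone genes 1 was higher and 6 were lower. Of 189 zinc finger genes (Zfp) 11 were higher and 23 lower, from Zfp36l1 at 2.44 to Zfp51 at -2.40. Of 166 solute carriers (Slc) 15 were higher and 13 lower, and of 51 Rab GTPases 4 and 4. The counts over all measured genes were 634 higher and 765 lower of 9578.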
